A study of Mus musculus with 12 samples.

Results

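The genes described here are the molecular chaperones and co-chaperones of the mouse genome whose symbols begin with Hsp90, Hspa, Hspb, Hspd, Hspe or Hsph, with Dnaja, Dnajb or Dnajc, or with Cct2 to Cct8, together with Tcp1 and Stip1. They were taken by symbol and type (protein-coding) in the GENCODE M21 annotation; the rule itself reads no measured value. Of 82 such genes, 81 had a row in the deposited tables, among 21474 protein-coding genes and 43346 annotated genes in all; Hspa14 was not analysed here. The 81 are 3 HSP90, 10 HSP70, 3 HSP110, 2 HSP60 and HSP10, 8 small heat shock protein, 4 DNAJA, 13 DNAJB, 28 DNAJC and 9 CCT genes, and Stip1. Cct6a, a subunit of the CCT ring, is typed as a processed transcript in M21 and as protein-coding in RefSeq, so it is described with the ring but is not counted among the 81. The RNA came from a pool of 13 excised and homogenised Purkinje cells of 1 male B6CASTF1/J mouse (Castaneus X C57Bl6 hybrid) aged 14 months, and every library received 1 cell-equivalent of that lysate. The 12 libraries carry the technical replicate numbers 1 to 6 and 8 to 13, form 1 group with no treatment and no control, and are named here by those numbers. Comparisons were therefore made between genes inside a library, and each p-value measures the technical spread among divisions of 1 lysate, not the spread between cells or animals.

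Chaperones bind unfolded or partly folded proteins and keep them from aggregating while they fold. HSP70 proteins hold short stretches of a client in a cycle of ATP binding and hydrolysis; DNAJ (J-domain) proteins deliver clients and start the hydrolysis, and HSP110 proteins release the nucleotide. Stip1 passes clients from HSP70 to HSP90, while the CCT ring folds actin and tubulin inside a closed chamber. Cytosolic members fall into a constitutive set and a set that the transcription factor HSF1 induces on heat or other proteotoxic stress. Purkinje cells are large inhibitory neurons, and mutations in several chaperone and co-chaperone genes cause ataxia in humans.

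The expected counts, which are estimated read numbers with shared reads divided between genes, summed to 20509107 ± 4364356 per library (SD, n = 12), with 15167444 the lowest and 27806010 the highest total. The 8 fixed Purkinje markers, Pcp2 and Calb1 among them, had at least 50 counts in every library and summed to 24288 ± 4839 TPM (a share of all RNA in a library, scaled for gene length). Markers of other cells were present too. The 6 Bergmann glia and astrocyte markers summed to 2061 ± 672 TPM, the 5 red blood cell markers to 744 ± 322, the 5 granule cell markers to 383 ± 195 and the 6 oligodendrocyte markers to 189 ± 83.5. The 6 microglial markers ranged from 0 to 446 TPM over the libraries and the 6 vascular markers from 0 to 287, with Cldn5 and Acta2 at 0 in all 12. Most chaperone genes are expressed in many cell types, and the part of these cells in the levels below was not tested; in a pool, more cells of a type and more RNA per cell cannot be told apart. Libraries 1, 4 and 13 stood apart, with 15.3 to 19.9 gene counts per ERCC spike-in count against 5.86 to 9.83 in the other 9, and results are given without them where they change.

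A large part of the chaperone RNA came from a few genes, and all but 13 of the 81 genes were found in some library. The 81 genes summed to 7115 ± 1289 TPM (SD, n = 12), with a median over libraries of 7218, a lowest value of 5127 in library 1 and a highest of 10112 in library 5. Library 1 also had the least TPM in protein-coding genes as a whole, 494565 against 608847 to 652024 in the other 11. Hspa8, Hsp90aa1 and Hsp90ab1 held 44.8 ± 4.55% of the chaperone sum, from 36.6 to 50.2% over the libraries. By family the sum was 2244 ± 537 TPM for HSP90, 1672 ± 343 for the 45 DNAJ genes, 1401 ± 521 for HSP70, 914 ± 97.6 for CCT, 463 ± 171 for HSP60 and HSP10, 190 ± 141 for the small heat shock proteins and 175 ± 67.6 for HSP110. The order of neighbouring families such as DNAJ and HSP70 lies within their spread.

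The direction in which libraries 1, 4 and 13 differed turned when counts were set against the spike-ins. On the TPM scale their chaperone sums were the 3 lowest, 5127 to 5891 against 7109 to 10112 TPM in the other 9, and as a share of the TPM of annotated genes they stood at 0.555 to 0.654% against 0.846 to 1.22%. As a share of the TPM of protein-coding genes they held 0.841 to 1.04% against 1.10 to 1.59%, library 1 included at 1.04%. As a share of gene counts, without spike-ins, they held 0.992 to 1.08% against 1.23 to 1.65%. Per spike-in count, the same genes had 0.166 to 0.198 counts in those 3 libraries and 0.0826 to 0.154 in the other 9, so the order was the opposite. The 3 libraries were set apart by their high gene counts per spike-in count, so this scale raises genes there in general and is no result about chaperone genes. Without the 3 libraries the sum was 7664 ± 945 TPM (SD, n = 9). The HSP90 sum was 1275 to 1684 TPM in the 3 libraries and 2010 to 3077 in the other 9 (2489 ± 339). These ranges do not overlap, while those of the other families do. The ranges of the whole chaperone sum and of the 3 leading genes (1998 to 2166 and 3143 to 4919 TPM) do not overlap either. The share of all genes without such overlap was not counted, so the gap cannot be read as a trait of HSP90.

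A count of at least 1 was found in all 12 libraries for 37 of the 81 genes, in some libraries for 31 and in none for 13. Among all 21474 protein-coding genes, the share with a count in every library was 15.2% and that without any was 40.0%. At least 50 counts in every library were reached by 23 of the 81, against 6.98% of all protein-coding genes. The shares moved with level. At a mean of 100 to 1000 TPM, 11 of 11 chaperone genes and 93.0% of 962 protein-coding genes had a count in every library, and at 10 to 100 TPM the shares were 55.3% of 38 and 40.7% of 4972. A further 28 of the 81, among them 21 of the 45 DNAJ genes, were present at 50 or more counts in some libraries and had no count in another. The same held for 39.9% of all protein-coding genes. At a mean of 10 to 100 TPM this held for 17 of 38 chaperone genes and 59.3% of 4972 protein-coding genes. Such on-and-off values in divisions of 1 lysate are values of the library, and a 0 in 1 library is no sign that the pool lacked the RNA.

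**Figure D1:**
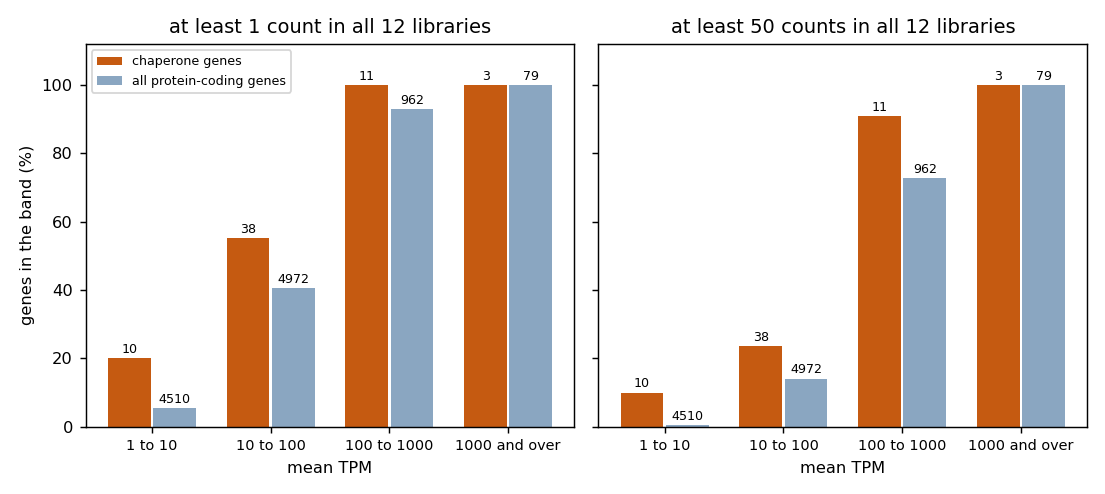
Percentage of genes with at least 1 count (left) and at least 50 counts (right) in all 12 libraries, for chaperone genes and for all protein-coding genes, by mean TPM; the number over a bar is the number of genes in the band. In the band of 10 to 100 TPM, 55.3% of 38 chaperone genes and 40.7% of 4972 protein-coding genes had a count in every library.

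The cytosolic HSP90 genes, whose products keep kinases and steroid receptors in a form that can be activated, were among the most abundant transcripts. Hsp90aa1 (ENSMUSG00000021270), the stress-inducible alpha form, had a lowest value of 634 TPM in library 3, a median of 1031 and a highest of 1540 in library 11. Hsp90ab1 (ENSMUSG00000023944), the constitutive beta form, ran from 452 in library 4 through a median of 1076 to 1560 TPM in library 9. The ranges overlap almost fully, and Hsp90ab1 was the lower of the pair in 8 libraries and the higher in 4. The difference in log2(TPM + 1), Hsp90ab1 minus Hsp90aa1, was -0.08 ± 0.62 (SD, n = 12; exact sign-flip permutation test, adjusted p = 0.821), with single libraries between -0.85 and 1.03. Hsp90b1 (Grp94), the HSP90 of the endoplasmic reticulum, stood lower, at 45.9 to 258 TPM with a median of 120. Stip1, the adaptor between HSP70 and HSP90, had a median of 57.1 TPM and ranged from 1.18 in library 5 to 126 in library 6.

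Hspa8 (Hsc70), the constitutive cytosolic HSP70 that also strips clathrin from vesicles, led the HSP70 family and all 81 genes by mean, while the inducible HSP70 genes were close to absent. Hspa8 (ENSMUSG00000015656) ran from 501 TPM in library 1 through a median of 955 to 2149 TPM in library 5. It was the highest of the 3 leading genes in 4 libraries, Hsp90aa1 in 5 and Hsp90ab1 in 3. Hspa8 minus Hsp90ab1 was 0.06 ± 0.64 on the log2 scale (exact sign-flip test, adjusted p = 0.847), with 5 libraries above 0 and 7 below. Without libraries 1, 4 and 13 the means were 1241 ± 479 TPM for Hspa8, 1164 ± 318 for Hsp90aa1 and 1195 ± 244 for Hsp90ab1 (SD, n = 9).

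Hspa1a had no count in any library, and Hspa1b had counts in library 10 alone, with 193 counts and 2.70 TPM. These neighbouring genes encode nearly the same stress-induced HSP70, and their reads can be divided between them uncertainly, so they were summed for the comparison. In library 10 Hspa8 stood 314-fold above the sum. In the 11 libraries with no count of either gene, the 3 counts that a count of 0 allows are worth 0.0442 to 0.0826 TPM, and against that limit Hspa8 was at least 8052-fold higher in each. With the second term at 0 in 11 libraries the direction was fixed, so no p-value is given, and the difference in log2(TPM + 1), 9.84 ± 0.87, depends on the pseudocount (12.92 at 0.1). This limit, like those that follow, covers counting error only, and PCR reads without molecular identifiers are not independent molecules.

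The upstream sequences of the inducible genes that stood at or near 0 are shown because they carry the letters that HSF1 is known to bind, GAA units in alternating orientation. They come from the RefSeq promoter table on GRCm38.p6 and cover the 250 bases before the annotated start, written 5′ to 3′ on the gene's strand, with each GAANNTTC or TTCNNGAA in capitals. Hspa1a lies on the minus strand at chr17:34972157-34972406, Hspa1b on the minus strand at chr17:34959239-34959488 and Hspb1 on the plus strand at chr5:135887669-135887918.
Hspa1a: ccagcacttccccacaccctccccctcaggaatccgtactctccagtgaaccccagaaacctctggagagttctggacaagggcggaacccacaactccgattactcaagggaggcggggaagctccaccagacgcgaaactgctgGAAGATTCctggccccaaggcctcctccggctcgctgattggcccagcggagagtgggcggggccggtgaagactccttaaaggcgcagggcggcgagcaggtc
Hspa1b: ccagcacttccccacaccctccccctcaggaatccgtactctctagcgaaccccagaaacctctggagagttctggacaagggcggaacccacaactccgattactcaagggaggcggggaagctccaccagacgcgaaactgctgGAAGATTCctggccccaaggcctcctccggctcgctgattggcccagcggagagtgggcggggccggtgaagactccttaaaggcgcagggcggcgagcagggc
Hspb1: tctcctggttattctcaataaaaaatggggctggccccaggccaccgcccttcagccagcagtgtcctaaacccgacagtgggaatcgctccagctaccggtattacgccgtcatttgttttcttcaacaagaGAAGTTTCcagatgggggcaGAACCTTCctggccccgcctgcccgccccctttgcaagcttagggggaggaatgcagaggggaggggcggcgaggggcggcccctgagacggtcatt
The Hspa1a and Hspa1b stretches had 247 of 250 bases in common, with GAANNTTC beginning 104 bases before the start in both. Hspb1 had it 117 and 97 bases before the start.

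Both motifs read the same on either strand, and they can overlap each other. Of the 81 genes, 66 had a promoter window in the table, 85 windows of 300 bases in all (250 before and 50 after a start). GAANNTTC was found in 21.2% of these windows and TTCNNGAA in 10.6%, against 7.86% and 8.52% of all 32851 windows; either was found in 24.7% and 15.1%. Runs of 3 units, in which another NNGAA or NNTTC follows the motif, were in 0.603% of all windows and in those of 4 chaperone genes, Hspd1, Hspe1, Hsph1 and Dnajb6. The Hspd1 and Hspe1 windows are the same DNA over 285 bases, so they show 1 site. Runs of 4 units were in 8 of the 32851 windows, 2 of which are those of Hspd1 and Hspe1. A match is a description of these letters and does not show that a factor bound there.

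The other HSP70 genes spanned a wide range of levels. Hspa5 (BiP), the HSP70 of the endoplasmic reticulum, ran from 42.0 TPM in library 9 through a median of 163 to 313 in library 6. Hspa9 (mortalin), which pulls proteins into mitochondria, ran from 11.2 to 110 TPM with a median of 59.2. Both had at least 50 counts in all 12 libraries. Hspa2, best known from male germ cells, had counts in every library and a median of 36.7 TPM, but fell to 0.05 in library 11; Hspa8 exceeded it in 12 of 12 libraries, by 5.48 ± 1.56 on the log2 scale (adjusted p = 0.00156). Hspa12a, an atypical HSP70 expressed in brain, had a median of 19.7 TPM and at least 50 counts in every library, whereas its paralog Hspa12b, known from endothelium, had counts in 4 libraries and at most 2.44 TPM. The difference in log2(TPM + 1) was 3.91 ± 1.22, and 6.40 at a pseudocount of 0.1, since Hspa12b had no count in most libraries; no p-value is given for it. Hspa13, a microsomal HSP70, ran from 0 to 31.4 TPM, and Hspa1l, a testis form, had no count, which allows up to 0.0479 to 0.0941 TPM depending on the library.

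**Figure D2:**
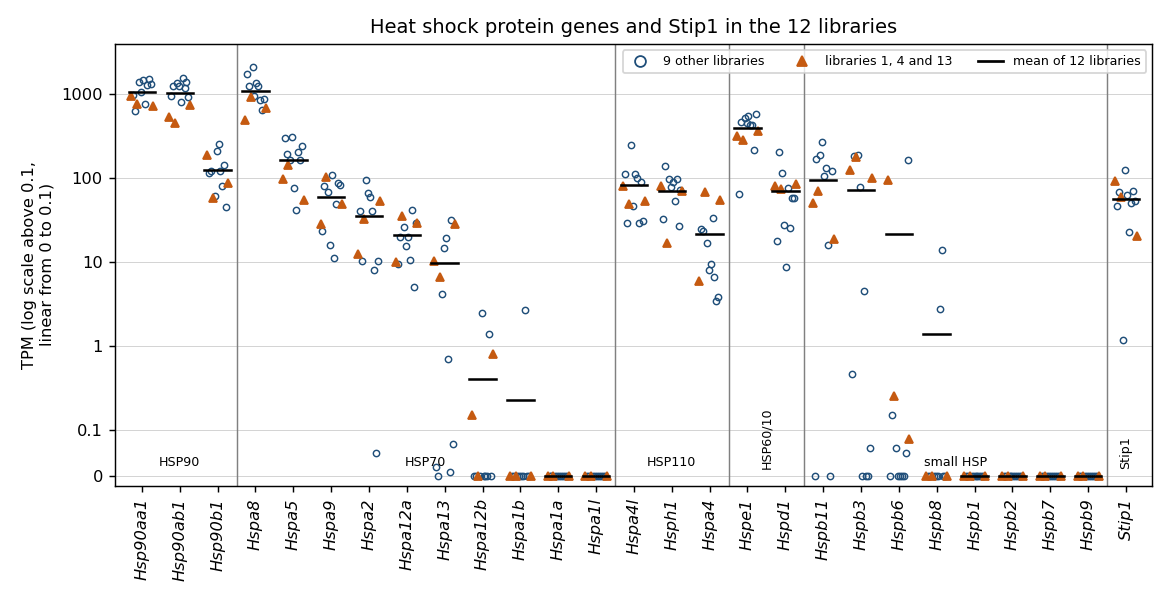
TPM of each heat shock protein gene and of Stip1 in the 12 libraries, by family (log scale above 0.1 TPM and linear below); triangles are libraries 1, 4 and 13, circles the other 9, and bars the mean of 12. Hspa8, Hsp90aa1 and Hsp90ab1 sit between 452 and 2149 TPM, while Hspa1a, Hspa1l and 4 small heat shock protein genes lie at 0 throughout.

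The 3 HSP110 genes, whose products exchange the nucleotide of HSP70, were all found in every library at 50 counts or more. That held for 6.98% of all protein-coding genes and for 14.1% of those at a mean of 10 to 100 TPM, where all 3 genes lie. Hspa4l ran from 29.03 TPM through a median of 67.8 to 247, Hsph1 (Hsp105), the stress-inducible form, from 16.7 through 74.8 to 142, and Hspa4 (Apg-2), the broadly expressed form, from 3.46 through 13.0 to 68.0. Hspa4 was thus the lowest of the 3 by median. It was below Hsph1 in 11 of 12 libraries (-2.04 ± 1.79 on the log2 scale, exact sign-flip test, adjusted p = 0.0100) and below Hspa4l in 10 (-2.15 ± 1.57, adjusted p = 0.00781). Library 4, where Hspa4 reached 68.0 TPM, is the exception to both, and library 13, where Hspa4 and Hspa4l were nearly equal at 54.42 and 54.22 TPM, is the other exception to the second. The 2 RefSeq starts of Hsph1 lie close together, and the 30 bases at chr5:149636287-149636316 (GRCm38.p6, minus strand), which follow the upstream start, are shown for their run of 3 units in capitals.
Hsph1: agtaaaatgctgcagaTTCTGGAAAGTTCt

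Mitochondrial HSP60 and its HSP10 lid are transcribed from a shared promoter in opposite directions, and their RNA levels differed. Hspe1 (HSP10) ran from 65.5 TPM in library 2 through a median of 429 to 588 in library 12. Hspd1 (HSP60) ran from 8.72 TPM in library 8 through a median of 67.0 to 206 in library 3. Hspd1 was the lower in 12 of 12 libraries, with a difference of -2.72 ± 1.32 on the log2 scale (exact sign-flip test, adjusted p = 0.00156), and the smallest gap in a library was -1.20. TPM is scaled for length; on CPM (counts scaled to the annotated total), without that scaling, the difference was smaller, -1.05 (adjusted p = 0.0067). Hspa9, which works beside HSP60 in the matrix, was above Hspd1 in 6 libraries and below it in 6 (-0.12 ± 1.56, adjusted p = 0.853). The annotated starts of Hspd1 and Hspe1 in the RefSeq table have 215 bases between them on chromosome 1, and the 30 bases at chr1:55088053-55088082 (GRCm38.p6, plus strand) hold the run of 4 units, in capitals.
Hspe1: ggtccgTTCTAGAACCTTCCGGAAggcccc

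**Figure D3:**
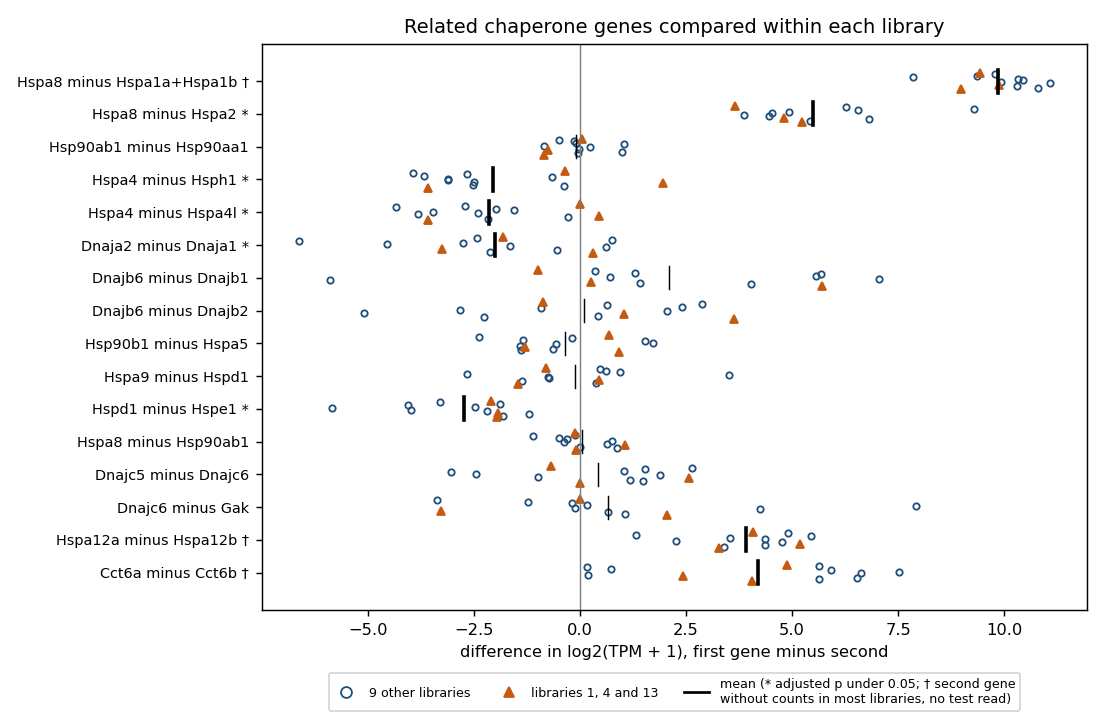
Difference in log2(TPM + 1) between the genes of 16 pairs, 1 symbol per library (triangles are libraries 1, 4 and 13), with the mean as a bar an asterisk where the adjusted p of the exact sign-flip test was below 0.05, and a dagger where the second gene had no count in most libraries, so that the direction was fixed. Of 16 pairs, 5 carry an asterisk and 3 a dagger; Hspa8 minus the summed Hspa1a and Hspa1b lies farthest to the right, at a mean of 9.84.

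Small heat shock proteins hold unfolding clients without ATP, and none of the 8 genes had a count in all 12 libraries. Of the 8, 4 had a count in some libraries and 4 in none. Over all protein-coding genes, 15.2% had a count in every library and 40.0% in none, so the counts for 8 genes do not set the family apart. Hspb1 (Hsp27), the inducible member, had no count in any library, nor had Hspb2 and Hspb7, known from heart and muscle, or Hspb9, known from testis. For Hspb1 the limit set by 3 counts is 0.139 to 0.273 TPM, depending on the library. Hspb11, which despite its name is a part of the intraflagellar transport machinery (Ift25), was the most abundant, from 0 TPM in libraries 2 and 11 through a median of 88.2 to 268 in library 6. Hspb3 stood at 78.0 to 189 TPM in libraries 1, 3, 4, 5, 6 and 13 and at 0 to 4.53 in the other 6. Hspb6 (Hsp20) had 95.7 TPM in library 1 and 165 in library 12, and at most 0.25 elsewhere. Hspb8, a partner of Bag3 in selective autophagy, was found in library 9 at 2.73 TPM and in library 10 at 13.9 TPM.

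Of the genes held as inducible, those present in every library were also the ones with a substantial level. The list of 8 textbook inducible cytosolic genes had 3 genes with counts in all 12 libraries (Hsp90aa1, Dnaja1 and Hsph1), 3 in some (Dnajb1, Hspb8 and Hspa1b) and 2 in none (Hspa1a and Hspb1), against 15.2% in all and 40.0% in none over all protein-coding genes. It summed to 1389 ± 300 TPM (SD, n = 12), of which Hsp90aa1 gave 1077 and Dnaja1 224. Hspa1a, Hspa1b, Hspb1 and Dnajb1, the most tightly inducible of them, summed to a median of 2.52 TPM, from 0 in libraries 1, 3, 6 and 9 to 76.7 in library 5, where the value was Dnajb1 alone. All 12 genes of the constitutive list (Hspa8, Hsp90ab1, Hspa4, Dnaja2 and the 8 CCT subunits) had a count in every library, and they summed to 3220 ± 802 TPM (3547 ± 614 without libraries 1, 4 and 13, where the sum was 1882 to 2449). The median gene had a mean of 8.16 TPM in the inducible list and 132 in the constitutive list, and over all 81 it was 21.5 TPM. The 8 CCT subunits alone also have a median of 132, so the gap is not one between related genes. Among paralogs, the inducible Hsp90aa1 was close to Hsp90ab1 (1077 and 1041 TPM). Hsph1 was above Hspa4 (71.4 and 21.5) and Dnaja1 above Dnaja2 (224 and 86.8). Hspa8 against Hspa1a and Hspa1b went the other way. The lists differ in length and were chosen from textbook knowledge, so their sums were not tested against each other. The 7 immediate early genes, which rise with tissue handling as well as activity, summed to 21.7 ± 20.5 TPM, with Atf3 at 0 in all libraries. The part of handling in the levels of inducible genes was not tested.

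The J-domain proteins were led by genes of mitochondria, the spliceosome and the cytosol. Dnajc15, an inner-membrane partner of the mitochondrial import motor, ran from 102 TPM in library 1 through a median of 225 to 613 in library 3. Dnajc19, its paralog in the same motor, had a median of 89.6 TPM but no count in libraries 2 and 6 and 0.06 TPM in library 8. The posterior standard deviation of the Dnajc19 count was up to 3.09% of that count. A processed pseudogene, Dnajc19-ps, stood at 5.53 ± 6.06 TPM, the highest of the 4 with counts among 11 pseudogenes named after the chaperone genes. Dnajc8, a spliceosome-associated protein, ran from 50.6 through 189 to 375 TPM. These 3 differ in steadiness: Dnajc15 and Dnajc8 had at least 50 counts in all 12 libraries and Dnajc19 in 9.

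Dnaja1, an inducible cytosolic partner of HSP70, ran from 29.5 TPM in library 8 through a median of 219 to 416 in library 2, and Dnaja2, its constitutive relative, from 0.32 in library 8 through 69.0 to 225 in library 11. Dnaja2 was below Dnaja1 in 9 of 12 libraries, with a difference of -2.00 ± 2.18 on the log2 scale (exact sign-flip test, adjusted p = 0.0146). That call ended without libraries 1, 4 and 13 (-2.14, adjusted p = 0.0547) and on CPM without length scaling (-1.50, adjusted p = 0.0732). The Dnaja1 window holds 1 motif, in capitals in these 30 bases at chr4:40722333-40722362 (GRCm38.p6, plus strand), 124 bases before the start.
Dnaja1: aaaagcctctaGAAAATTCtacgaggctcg

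The J proteins with known roles in neurons were moderate in level and ranged widely between libraries, as many genes of that level did. The ratio of their spread to that of genes of similar level was 0.415 for Dnajc6, 0.470 for Dnajb6, 0.511 for Dnajb2 and 1.08 for Dnajc5. It was 1.88 for Dnajc7 and 2.23 for Dnajc12, and the median over all genes tested was 1.20. None of these genes was called in that fit, which called almost no gene. Dnajc5 (cysteine string protein), which guards SNARE proteins on synaptic vesicles, ran from 1.24 through 49.9 to 87.7 TPM. Dnajc6 (auxilin), which recruits Hspa8 to clathrin coats in neurons, ran from 1.51 through 21.2 to 241 TPM. Both had at least 50 counts in every library. Dnajc5 minus Dnajc6 was 0.43 ± 1.87 on the log2 scale, above 0 in 8 libraries (exact sign-flip test, adjusted p = 0.626). Dnajc6 minus Gak, the auxilin of most other cells at 24.2 ± 20.3 TPM, was 0.66 ± 3.09, above 0 in 6 (adjusted p = 0.669), and 0.0035 without library 8, where Dnajc6 stood at 241 TPM. Neither difference exceeded its spread between libraries, and single libraries reached -3.36 and 7.92 for the second. Dnajb6 and Dnajb2, both known to keep polyglutamine proteins from aggregating, had medians of 33.2 and 27.3 TPM, and Dnajb6 minus Dnajb2 was 0.09 ± 2.58 (adjusted p = 0.905). The posterior standard deviation of the Dnajb6 count was up to 10.3% of that count. Dnajb1 (Hsp40), the inducible partner of Hspa1a, had counts in 7 libraries, a median of 1.31 TPM and a highest value of 76.7 in library 5. Dnajb6 was above Dnajb1 in 10 libraries, by 2.10 ± 3.68 (adjusted p = 0.118); without library 5 the difference was 2.83 and passed the test (adjusted p = 0.0137).

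Several J-domain genes were present at a high level in some libraries and near 0 in others. Dnajc7, a protein with binding sites for both HSP70 and HSP90, ran from 0 in library 2 through 56.9 to 310 TPM in library 5. Dnajc12, a partner of aromatic amino acid hydroxylases, had a median of 0.975 TPM and yet reached 276 in library 11, 124 in library 6, 89.95 in library 1 and 62.1 in library 9. Dnajc30, a mitochondrial protein, had counts in 8 libraries and reached 202 TPM in library 9. Dnajb11, a J protein of the endoplasmic reticulum lumen, ran from 0 in library 12 through 33.2 to 211 TPM in library 5, and Dnajc4 from 0 in library 11 through 21.9 to 199 TPM in library 2. Which libraries were high differed from gene to gene. Dnajb3, picked out after its values were seen, had 51.4 TPM in library 5 and no count in the other 11. Dnajb8 and Dnajb13, known from testis and sperm, Dnajc5b and Dnajc5g, paralogs of cysteine string protein, and Dnajc22 had no count in any library. Around a mean of 1 TPM, Dnajc28 stood at 1.01 ± 2.46 TPM with counts in 2 libraries, and Dnajc24 at 0.692 ± 1.59 TPM with counts in 3. The other 22 DNAJ genes had means from 0.0533 TPM (Dnajc14) to 39.7 TPM (Dnaja3), with a count in every library for 7 and in some for 15, and at least 50 counts in every library for 2, Dnajb14 and Dnajc18; these names were chosen after their values were seen.

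**Figure D4:**
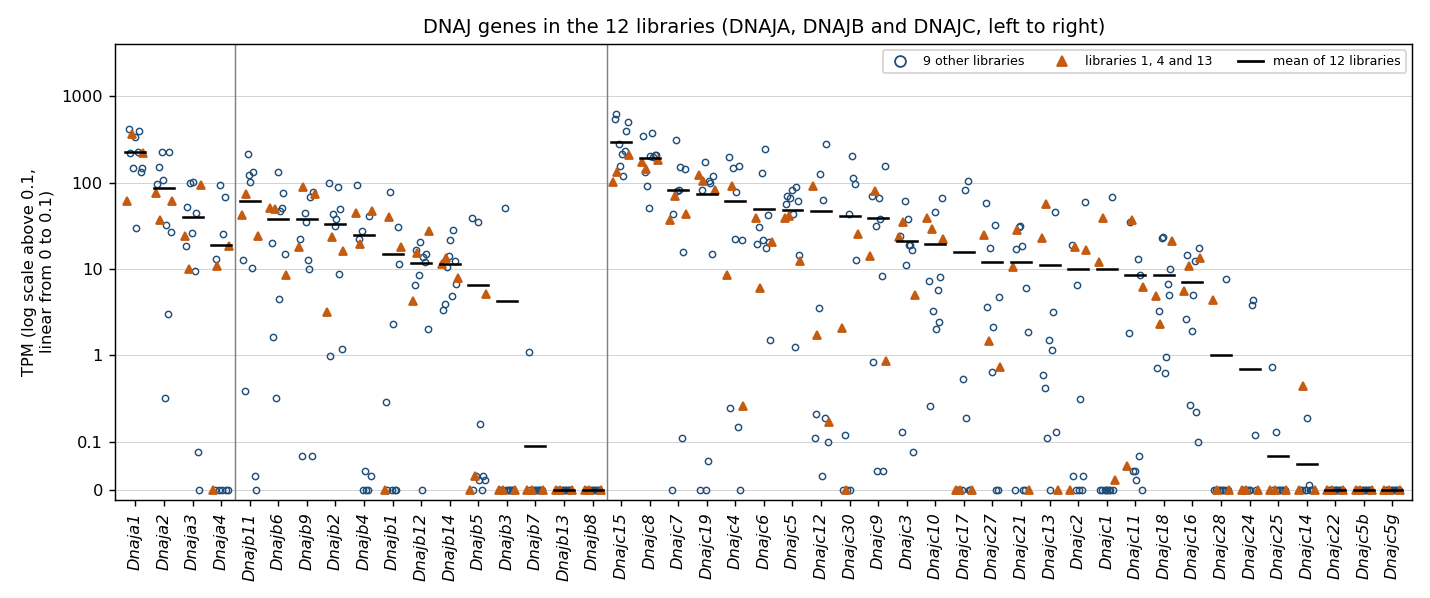
TPM of each DNAJ gene in the 12 libraries, with DNAJA, DNAJB and DNAJC genes from left to right (log scale above 0.1 TPM and linear below); triangles are libraries 1, 4 and 13, circles the other 9, and bars the mean of 12. Dnaja1, Dnajc15 and Dnajc8 stay at 29.5 TPM or more, whereas genes such as Dnajc12 and Dnajc30 spread from under 0.1 to over 200 TPM.

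By compartment, the 8 endoplasmic reticulum genes summed to 450 ± 138 TPM (SD, n = 12) and the 7 mitochondrial genes to 935 ± 295. In the first list 5 of 8 genes had counts in every library, and in the second 4 of 7. Within the endoplasmic reticulum, Hsp90b1 minus its HSP70 partner Hspa5 was -0.36 ± 1.31 on the log2 scale, with Hsp90b1 the lower in 8 libraries (exact sign-flip test, adjusted p = 0.570). The 8 vesicle and nervous system J proteins, Dnajc5 and Dnajc6 among them, summed to 308 ± 157 TPM, with counts in every library for 5 of 8. Over all 21474 protein-coding genes the share with a count in every library was 15.2%.

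The CCT ring is built from 8 different subunits, each present once in each of its stacked rings. All 8 subunit genes had counts in all 12 libraries, and 4 of them had at least 50 in each. A count in every library was found for 15.2% of all protein-coding genes. That share was 93.0% at a mean of 100 to 1000 TPM and 40.7% at 10 to 100 TPM. The sum of the 8 subunits was steady, 962 ± 114 TPM (SD, n = 12), lowest at 761 in library 1 and highest at 1167 in library 6. Its coefficient of variation was 0.118. Single subunits varied far more. Cct3 ran from 2.14 TPM in library 9 through a median of 222 to 330 in library 5, and Cct5 from 19.4 in library 2 through 144 to 372 in library 6. Tcp1 (subunit alpha) ran from 19.6 through 133 to 273 TPM, Cct7 from 34.6 through 134 to 361 and Cct8 from 10.3 through 102 to 270. Cct4 ran from 0.21 through 53.6 to 241 TPM, Cct2 from 0.61 through 55.7 to 226 and Cct6a from 0.13 through 38.6 to 183. Within a library the highest subunit stood 6.12-fold (library 12) to 2740-fold (library 11) above the lowest, and the highest was Cct3 in 4 libraries, Cct5 in 4, and Cct4, Cct7, Cct8 and Tcp1 in 1 each. The rank of Cct3 depends on the estimate: its coding transcripts held a mean of only 26.6% of its TPM. Its difference from the mean of the other 7 was 1.01 on the log2 scale, but -0.34 on CPM, without length scaling. A sum over genes that vary separately has a smaller relative spread than its parts, so the steady sum is not by itself a sign that the subunits were held together.

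No subunit stood apart from the mean of the other 7 at an adjusted p below 0.05. Cct6a was the lowest, with a difference from the others of -2.08 ± 2.71 on the log2 scale (below in 10 of 12 libraries; exact sign-flip test, p = 0.0200, adjusted p = 0.0996), and Cct5 the highest, 1.18 ± 1.54 above (9 of 12; p = 0.0249, adjusted p = 0.0996). Without length scaling, on CPM, 5 of the 8 subunits passed the test, Cct6a (-2.29) below and Cct7, Cct5, Cct8 and Tcp1 above (1.60, 1.35, 1.10 and 0.83; adjusted p = 0.0469 for each), and without library 1 Cct8 alone passed (1.12, adjusted p = 0.0156). Cct6b, the testis form of subunit zeta, was at 0 counts throughout, so up to 0.0656 to 0.129 TPM is possible. Cct6a had counts in all 12, but at 0.13 TPM in library 11 and 0.15 in library 5 it stood close to that limit; with Cct6b at 0 throughout no test was read. Cct8l1 had no count either.

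**Figure D5:**
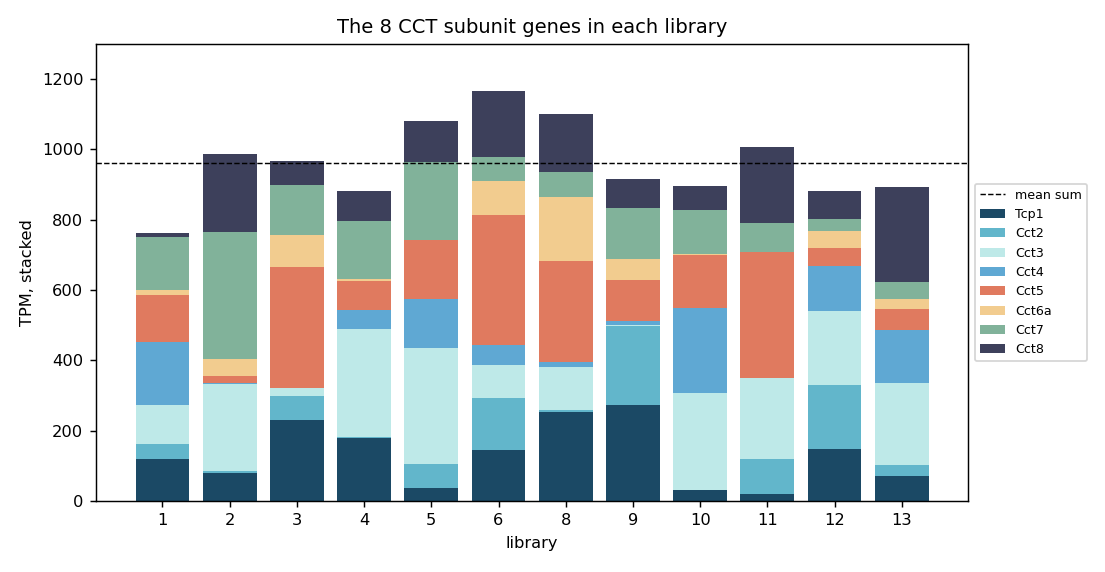
TPM of the 8 CCT subunit genes stacked for each library, with the mean of the sums as a dashed line. The sums run from 761 to 1167 TPM, while the bands of single subunits, such as Cct4 and Cct2, change from over 200 TPM to under 1 TPM between libraries.

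No chaperone gene was called as more variable between libraries than genes of similar level, in a fit that called almost no gene. In edgeR's quasi-likelihood fit over 13899 genes, 0.0144% (2 genes) varied beyond the abundance trend at an adjusted p below 0.05, and 0 of the 65 chaperone genes tested did. At an unadjusted p below 0.05 the counts were 0 of 65 and 95 of 13899 (0.684%), and DESeq2 called 0 dispersion outliers in either set. Hspa8 had the smallest p among the 65 (0.0511, adjusted p = 0.773). The spread was above the trend for 34 of the 65 and for 66.0% of all genes tested, and its median ratio to the trend was 1.08 for the 65 against 1.20; this difference was not tested. The coefficient of variation of the 23 genes with 50 counts in every library ran from 0.295 for Hsp90aa1 to 1.405 for Dnajc6.

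The estimated transcripts behind the levels were clear for some genes and changed between libraries for others. Of 39 chaperone genes with a mean of at least 10 TPM and 2 or more annotated transcripts, 9 had the same leading transcript in every library, against 12.6% of 4715 such protein-coding genes. The 9 are Hspa8, Hsp90aa1, Hspe1, Cct5, Hsp90b1, Hspd1, Hspa9, Dnajc12 and Dnajb14, the last outside the rule for naming genes. Hspa8-202, a coding transcript, held 78.1 ± 7.57% of the Hspa8 TPM (SD, n = 12) and Hsp90aa1-201 61.2 ± 14.9% of that of Hsp90aa1. In Hsp90ab1 the coding transcript Hsp90ab1-201 led in 10 libraries with a mean share of 64.7%, and Hsp90ab1-206, typed as a target of nonsense-mediated decay, held 28.7%. In Cct3 the transcript with the highest mean share was Cct3-203, typed as a retained intron, with 73.4 ± 28.6%, and it led in 9 of 12 libraries. In Dnajc8 it was Dnajc8-208, typed as nonsense-mediated decay, with 37.4 ± 27.7%, and it led in 7. The coding transcript Dnajc8-202 came next at 29.9%. Reads of a gene are divided between transcripts by the authors' estimate, so these shares are less certain than gene totals. Over the 35 of the 39 genes whose transcripts are all in M21, coding transcripts held a median of 87.0% of the TPM, against 89.7% over 4490 protein-coding genes.

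Other genes of the pathway were taken from a list of 47 co-chaperones and regulators, all matched in the tables, of which 20 had counts in every library, 26 in some and 1, Bbs12, in none. Over all 21474 protein-coding genes, 15.2% had a count in every library and 40.0% in none. The list summed to 3332 ± 566 TPM (SD, n = 12). In edgeR's quasi-likelihood fit 0 of the 46 tested varied beyond the trend, at adjusted or unadjusted p. Over all 13899 genes tested the fit called 2 (0.0144%) and 95 (0.684%), so 0 of 46 says little about this list. The 6 highest were the prefoldin subunits Pfdn5, Pfdn1 and Pfdn6, the HSP90 partners Ptges3 and Ahsa1, and the HSP70 partner St13. Prefoldin hands nascent actin and tubulin to CCT, and its other subunits on the list were lower. Pfdn5 ran from 372 TPM through a median of 653 to 1222, Ptges3 (p23), which stabilises the closed HSP90 dimer, from 215 through 438 to 626, and Pfdn1 from 106 through 245 to 503. Ahsa1, the activator of the HSP90 ATPase, ran from 17.1 through 128 to 379 TPM, St13 (Hip), which stabilises client-bound HSP70, from 58.1 through 149 to 415, and Pfdn6 from 0 through 124 to 355. Pfdn5, Ptges3, Pfdn1, Ahsa1 and St13 had at least 50 counts in every library, and Pfdn6 had none in library 8.

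The heat shock factors differed in the number of libraries with counts. Hsf2, a factor active in development and in the brain, was found in all 12 libraries at 50 counts or more, from 1.79 TPM in library 2 through a median of 29.5 to 72.0 in library 12. Hsf1, the main factor of the heat shock response, had counts in 6 libraries, with a median of 0.105 TPM, 73.0 in library 8, 49.5 in library 11, 14.6 in library 1 and at most 3.96 in the other 9. Its mean was 11.8 TPM. At a mean of 10 to 100 TPM, 59.3% of protein-coding genes had 50 or more counts in some library and none in another. The values of Hsf1 are therefore usual for its level and are no trait of this gene. Hsf4, outside the rule for naming genes, had counts in library 6 alone, at 51.8 TPM. The lowest gene of the list with a count was Fkbp5, an HSP90 co-chaperone of the glucocorticoid receptor, at 1.20 ± 4.16 TPM with counts in 2 libraries.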

How the data were processed

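Per the labels, the libraries were made by a Smart-seq protocol from RNA longer than 200 bases with spike-in RNA; quantification used mm10 and GENCODE M4, per a text file that accompanies each deposited library. For the aligner, quantifier and strand, the entry is: not given in the sources used here. Per the file headers, the deposited tables hold expected counts, posterior mean counts with their standard deviation, effective lengths, and TPM, which the authors computed over all 69691 features with spike-ins included. Names came from GENCODE M21 (GRCm38; 42462 of 43346 gene identifiers matched). The rule for members reads no measured value, but it and the lists were chosen with earlier results of these data known.

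Levels were compared within libraries as log2(TPM + 1) by exact two-sided sign-flip permutation tests over 4096 patterns (smallest p 0.000488), adjusted by Benjamini-Hochberg over 16 pairs and over 8 CCT subunits. Expected counts were rounded and fitted in edgeR 4.0.16 (R 4.3.3; intercept only, TMM factors, mean count of at least 5), and the quasi-dispersion of a gene was set against the trend over abundance by a one-sided F test, adjusted over all genes; DESeq2 1.42.0 was an alternative. Both kinds of test were checked on simulated data. Adjusted p below 0.05 was called, and the floor for a count of 0 was 3 counts per library. The posterior standard deviation was divided by the expected count in libraries with at least 50 counts. The largest value of a gene was at most 1% for 61 of 65 genes with enough counts. It measures the uncertainty of the estimate, not the share of reads that are shared. Other alternatives were a pseudocount of 0.1, CPM, TPM of annotated genes only, counts under 50 set to 0, other filters and leaving out libraries. The naming rule took all HSP, Stip1, CCT and pair genes, the 12 DNAJ genes highest in mean TPM and those without a count, the 6 highest and the lowest co-chaperones with Hsf1 and Hsf2, and the genes nearest a mean of 1 TPM. No 2 libraries shared more than 1.35% of equal TPM values among genes with a value.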

Additional observations from a re-analysis of the deposited data

How the results depend on the processing

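No paired analysis was possible because the libraries form 1 group, with no second group to block on; the tests set genes against each other within a library. Of 16 pairs, 8 passed, and 8 to 9 did without 1 library each. In 3 of the 8 the second gene had no count in most libraries, which fixed the direction. The adjusted p-values printed above include these 3 pairs. When both genes needed a mean of 1 TPM, 5 of 13 passed, with larger adjusted p (exact sign-flip test). These were 0.00317 for Hspa8 minus Hspa2 and for Hspd1 minus Hspe1, 0.0127 for Hspa4 minus Hspa4l, 0.0143 for Hspa4 minus Hsph1 and 0.0190 for Dnaja2 minus Dnaja1. CCT subunits that passed numbered 0, then 0 to 1 without 1 library each (1 without library 1) and 5 on CPM; the cause was not tested. Members with a count in every library numbered 37, 37 to 40 without 1 library each, 23 at 50 counts and 24 at 1 TPM. The same leading transcript was kept by 9 members, and by 9 to 10 without 1 library each. Members varying beyond the trend numbered 0 under each alternative run, leaving out 1 library included (0 to 0). Without libraries 1, 4 and 13 these counts were 7, 0, 37, 10 and 0, an alternative chosen after seeing the data.

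Differences that changed sign had not passed. On CPM they were Dnajb6 minus Dnajb2 (-0.17), Hspa9 minus Hspd1 (0.30) and Cct3 (-0.34, from 1.01). Without 1 library each, Dnajb6 minus Dnajb2 lay between -0.23 and 0.56, Hspa9 minus Hspd1 between -0.45 and 0.11, and Hspa8 minus Hsp90ab1 between -0.0284 and 0.17. Without libraries 1, 4 and 13, Hsp90ab1 minus Hsp90aa1 was 0.0661, Dnajb6 minus Dnajb2 -0.30, Hspa9 minus Hspd1 0.0444 and Hspa8 minus Hsp90ab1 -0.0103. A pseudocount of 0.1, TPM of annotated genes only and counts under 50 set to 0 left all 16 pairs and 8 subunits on the same side of the threshold, but the pseudocount moved the sizes against genes near 0, Hspa8 minus Hspa1a and Hspa1b to 12.92, Cct6a minus Cct6b to 7.01 and Hspa12a minus Hspa12b to 6.40. At a mean of 1 to 10 TPM, 2 of 10 members had a count in every library; the part of depth was not tested.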
